A study of Mus musculus with 6 samples.

Results

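The genes described here are 9 that are used to recognise blood vessels of the brain and to study their barrier: Slc2a1, Slc7a5, Slco1c1, Mfsd2a, Tfrc, Abcb1a, Cldn5, Pecam1 and Ly6c1. They were chosen by name, as 9 of the 18560 genes in a raw count table of single cells from the mouse olfactory bulb, and all 9 had counts. Capillaries of the brain are lined by endothelial cells that are sealed to each other by tight junctions and take up little by vesicles, so that solutes cross mainly through carriers and receptors in the endothelial membrane. Slc2a1 encodes the glucose carrier GLUT1, Slc7a5 the large neutral amino acid carrier LAT1, Slco1c1 a carrier of thyroxine, and Mfsd2a a carrier of lysophosphatidylcholine-bound omega-3 fatty acids that also restrains vesicle traffic. Tfrc encodes the transferrin receptor, which brings in iron, and Abcb1a a P-glycoprotein efflux pump that returns lipophilic compounds to the blood. Cldn5 encodes claudin-5, the main claudin of these tight junctions, Pecam1 the adhesion molecule CD31 of endothelial contacts, and Ly6c1 a GPI-anchored surface protein used as a marker of brain endothelium.

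Cells were captured as droplets from 6 libraries of wild-type C57BL/6NJ mice, 2 libraries for each of 3 conditions: control, naris occluded (1 nostril closed to deprive the bulb of odours) and trained in olfactory discrimination. Each library was a pool of adult animals, and in each condition replicate 1 was labelled male and replicate 2 female. Trained mice were water-deprived for the task, so training and water deprivation cannot be told apart, and the sources used here differ on whether the control bulbs came from untreated mice or from the open side of occluded mice. The dissected bulbs were dissociated with papain after a perfusion with saline, and the tissue kept some olfactory epithelium. Clusters are called as in the deposited annotation of 51426 cells in 38 clusters. A library held 6705 to 10570 annotated cells with a median of 1028 to 1723.5 unique molecular identifiers (UMIs, each standing for 1 captured RNA molecule). Trained library 1 was the shallowest and had the highest median mitochondrial share, 14.4% against 9.25% to 11.6% in the others. Between any pair of libraries 65 to 144 cell barcodes were shared. The name prefixes of the cells of the trained libraries were the reverse of their library column, and the library column was used because Xist and Ddx3y counts there matched the labelled sexes. With 2 pools per condition, 1 of each sex, p-values for the conditions set a difference against the spread between such pools. That spread includes any difference between the sexes.

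The genes lie on 7 chromosomes of the GRCm38.p6 assembly: Slc2a1 at chr4:119108745-119137330, Mfsd2a at chr4:122946850-122961194, Abcb1a at chr5:8567091-8748575, Slco1c1 at chr6:141524354-141570177, Slc7a5 at chr8:121881146-121907686, Pecam1 at chr11:106654213-106715281, Ly6c1 at chr15:75044018-75048920, Cldn5 at chr16:18776847-18778262 and Tfrc at chr16:32608896-32632794. The libraries count the 3′ end of each transcript. The promoters of Slc2a1 and Mfsd2a are shown because these genes had the largest log2 fold changes of trained over occluded among the 9 in both endothelial clusters below, and ACGTG, 1 of 3 motifs searched, occurred in both. They are the 250 bases before a transcript start given by RefSeq, written 5′ to 3′ on the gene's strand, with capitals marking ACGTG, the core of E-box-like and hypoxia-response elements, on that strand (both strands were searched).
Slc2a1 promoter, chr4:119108495-119108744, plus strand: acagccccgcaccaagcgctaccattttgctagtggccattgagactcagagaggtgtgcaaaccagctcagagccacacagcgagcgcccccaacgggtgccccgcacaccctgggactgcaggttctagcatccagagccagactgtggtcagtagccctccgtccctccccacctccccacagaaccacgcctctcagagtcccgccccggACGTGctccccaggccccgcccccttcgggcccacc
Mfsd2a promoter, chr4:122961189-122961438, minus strand: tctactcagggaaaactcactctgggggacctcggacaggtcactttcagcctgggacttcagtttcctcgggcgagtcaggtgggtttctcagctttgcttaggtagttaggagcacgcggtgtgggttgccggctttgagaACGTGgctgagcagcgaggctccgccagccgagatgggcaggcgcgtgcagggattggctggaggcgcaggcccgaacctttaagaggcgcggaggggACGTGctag
ACGTG matched once in the Slc2a1 window and at 2 places in that of Mfsd2a. The Mfsd2a window ends with 6 bases of the annotated gene, into which the second of these matches runs. Of 9 start windows that RefSeq gave for 7 of the genes, 3 held ACGTG, against 16.6% of 32851 mouse promoters. A window of Tfrc, not shown, was among these 3. CTTTG, the core read by TCF factors of Wnt signalling, was in 6 of the 9 windows and in 48.6% of all promoters, and AGGAA, an ETS core, in 6 of 9 and in 60.3%. These matches describe letters in a window and say nothing of binding.

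The endothelial cluster EC1 (2524 cells, 4.91% of all, median 1621 UMIs) had the highest mean of all 9 genes among the 38 clusters, and in each of the 6 libraries every gene was higher in EC1 than in the second endothelial cluster, EC2 (1124 cells, median 750.5 UMIs). Levels are given as CPM, the UMIs of the gene per 1000000 UMIs of the cluster in a library, with the SD over 6 libraries; CPM of different genes are not compared, and since the clusters were built from the same counts, differences between clusters are described without a test. Among the carriers, Slc2a1 was at 1090 ± 404 CPM in EC1 and 572 ± 165 in EC2. Slco1c1 was at 901 ± 34.2 CPM in EC1 and 519 ± 64.4 in EC2, the steadiest of the carriers between libraries. Slc7a5 was at 618 ± 92.4 and 345 ± 66.5 CPM, and Mfsd2a at 241 ± 40.7 and 175 ± 58.1. The efflux pump gene Abcb1a was at 961 ± 20.8 CPM in EC1, where its 6 libraries lay between 926 and 987, and at 607 ± 119 in EC2. Tfrc was at 392 ± 40.6 CPM in EC1 and 246 ± 61.4 in EC2. Of the junction and surface genes, Cldn5 was at 7156 ± 907 CPM in EC1 and 3264 ± 764 in EC2, Pecam1 at 443 ± 26.9 and 286 ± 32.6, and Ly6c1 at 4889 ± 587 and 1892 ± 175.

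**Figure D1:**
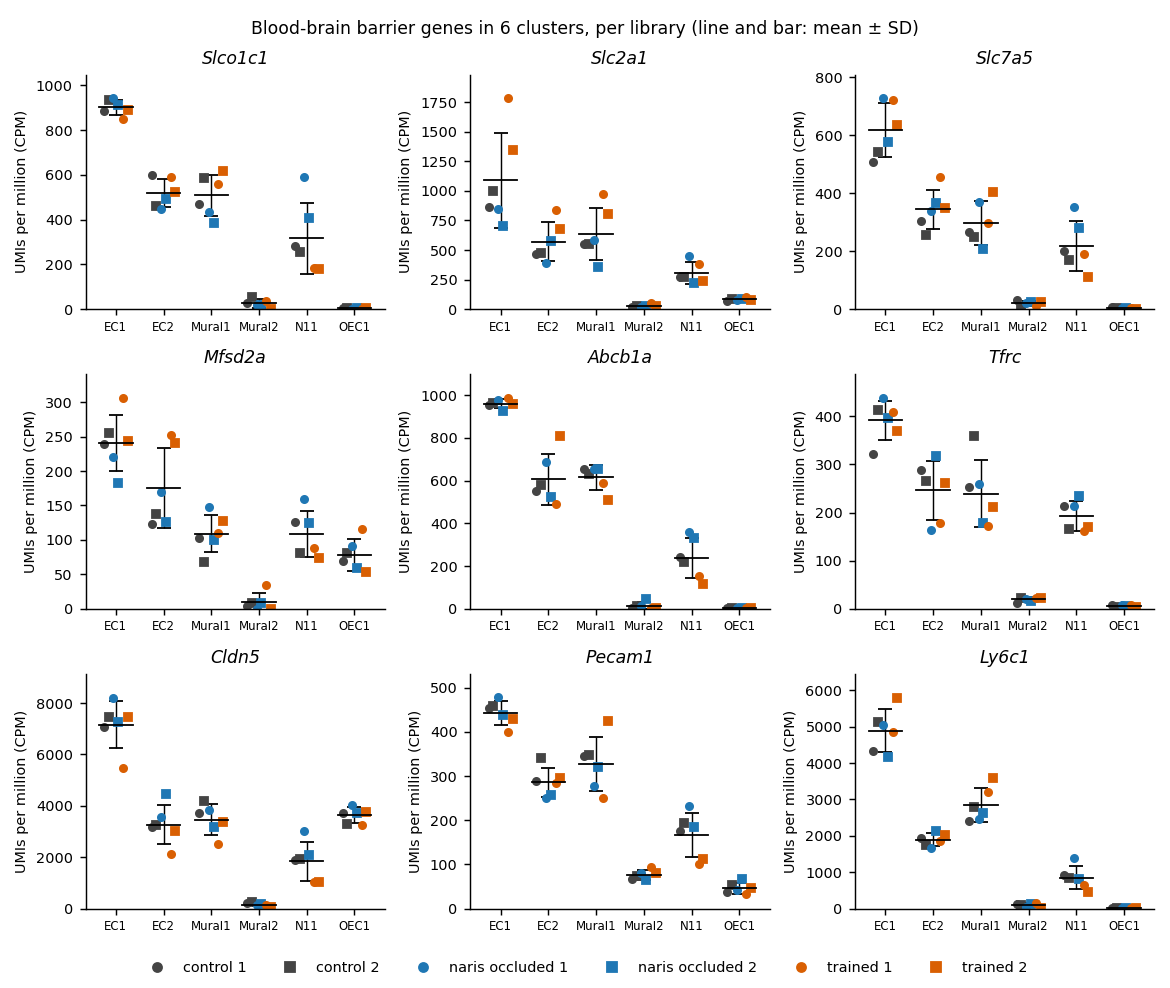
Level of each of the 9 genes in EC1, EC2, Mural1, Mural2, N11 and OEC1, in CPM, 1 point per library with mean and SD over 6 libraries. EC1 is highest for every gene, and OEC1 stands near EC2 for Cldn5 only.

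EC2 kept between 39.3% (Ly6c1) and 72.0% (Mfsd2a) of the EC1 level, with a median over the genes of 57.8%. EC2 also had higher levels of glial markers. The 4 markers of olfactory ensheathing cells, the glia that wrap olfactory axons, summed to 6771 CPM in EC2 and 864 in EC1. Astrocyte markers summed to 1946 and 333 CPM. The 8 endothelial markers fixed as a check, none of them a member, summed to 3036 and 6092 CPM. The median mitochondrial share was 17.1% in EC2 and 8.38% in EC1. The origin of the glial marker counts, and the part of depth and of other cells' RNA in the EC2 levels, were not tested.

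Mural1 (158 cells, median 3508 UMIs) carried the genes at 46.6% to 74.1% of EC1, and its neighbour in the order of levels was mostly EC2. The 2 clusters differed by less than 1 SD of the per-library differences for Slco1c1, Slc2a1, Slc7a5, Abcb1a, Tfrc, Cldn5 and Pecam1, and by more for Ly6c1, which was at 2846 ± 460 CPM in Mural1. Mfsd2a was higher in EC2 (175 ± 58.1 CPM) than in Mural1 (109 ± 27.1) in 6 of 6 libraries. It is labelled as mural, the class of pericytes and smooth muscle cells, and its pericyte markers summed to 10839 CPM. Its endothelial markers summed to 4461 CPM, and 99.4% of its cells had at least 2 UMIs of endothelial and at least 2 of pericyte markers, against 25.7% in Mural2 and 19.2% in EC1. With the 9 genes in place of the endothelial markers, these shares were 100%, 11.7% and 19.3%. Cells were not thinned for them, and the median was 1349 UMIs in Mural2 and 1621 in EC1. In Mural2 the endothelial markers Esam and Emcn were at 53.3% and 30.9% of EC1, and the others at 4.27% or less. A cell of Mural1 held a median of 31 UMIs of the 9 genes together and 37 of pericyte markers. In Mural2 (769 cells), whose pericyte markers summed to 20021 CPM, the median of the 9 genes was 2.84% of EC1. Mural2 thus carried the markers of its label, whereas the cells of Mural1 carried both sets.

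Outside vessels the 9 genes separated. Cldn5 was at 3630 ± 304 CPM in OEC1, a cluster of 2252 ensheathing cells, with 3723 and 3305 in control, 4039 and 3721 in occluded and 3235 and 3759 in trained libraries. These libraries overlapped between conditions, and the level differed from that of Mural1 by less than the spread between libraries. The endothelial receptor gene Flt1 was at 8.62 ± 2.49 CPM and the endothelial cadherin gene Cdh5 at 2.35 CPM in the same OEC1 cells. Cldn5 was lower in the other ensheathing clusters: 1215 ± 214 CPM in OEC2, 1066 ± 390 in OEC5, 435 ± 63.9 in OEC3 and 141 ± 40.9 in OEC4. Mfsd2a was also spread over glia, at 122 ± 18.3 CPM in oligodendrocyte precursors (OPC) and 117 ± 13.03 in OEC4, which did not differ from each other beyond the spread. Abcb1a reached 263 ± 37.5 CPM in Mes2, a mesenchymal cluster, and 109 ± 11.6 in OEC4. Slc2a1 in OEC1 was at 84.4 ± 11.3 CPM, Slco1c1 in Astro1 at 52.5 ± 15.5, and Pecam1 in myelinating oligodendrocytes at 130 ± 45.05. Tfrc had its next levels in neurons, at 110 ± 70.2 CPM in N7, from 46 UMIs in all, and at 94.1 ± 20.6 in N8. Slc7a5 was at 49.1 ± 50.8 CPM in N7, from 22 UMIs, and 34.7 ± 11.98 in N15, from 28. In glia it was at 31.2 ± 4.06 CPM in OEC4, from 248 UMIs, and 30.3 ± 10.1 in OPC. From N7 to OPC, no step between neighbouring Slc7a5 levels exceeded the spread. Ly6c1 was at most 98.4 CPM (Macrophage) in any cluster other than EC1, EC2, Mural1 and N11.

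These differences also show in where the molecules of a gene came from. EC1 held 73.5% of all Ly6c1 UMIs, 62.3% of Slco1c1, 56.1% of Slc2a1, 55.9% of Abcb1a and 53.3% of Slc7a5, from 4.91% of the cells. For Cldn5 the share was 43.4%, for Tfrc 40.2%, for Pecam1 27.4% and for Mfsd2a 24.6%. Ensheathing cells, 22.5% of the cells, held 43.6% of the Mfsd2a UMIs and 37.2% of those of Cldn5. Neurons other than N11, 41.9% of the cells, held 24.5% of the Tfrc UMIs and 19.6% of those of Pecam1. Over the whole table a gene had between 4527 UMIs (Tfrc) and 76237 (Cldn5).

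**Figure D2:**
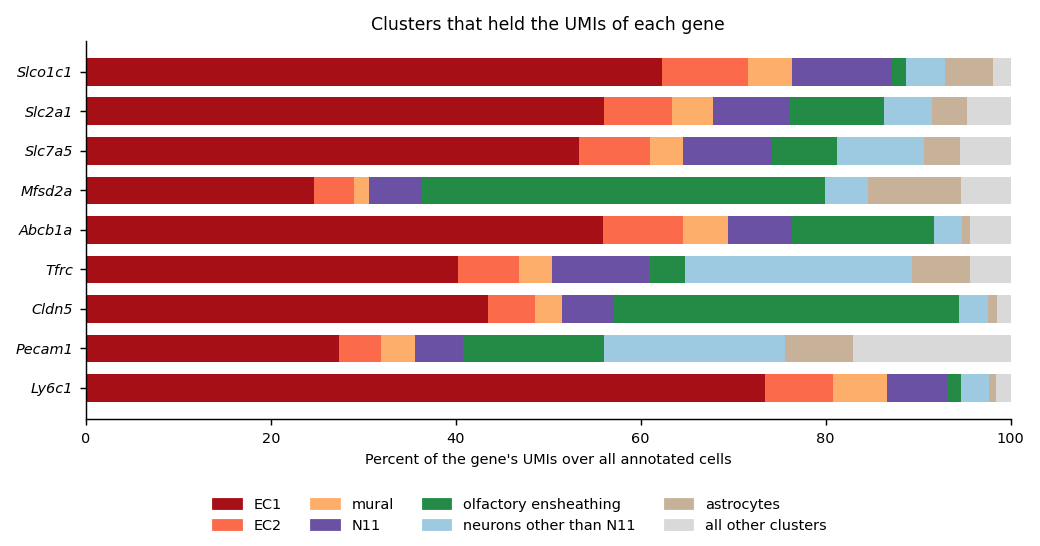
Percent of each gene's UMIs that fell in EC1, EC2, mural, N11, ensheathing cells, other neurons, astrocytes and all other clusters, 1 stacked bar per gene, all libraries summed. EC1 takes 73.5% of the Ly6c1 UMIs and 24.6% of those of Mfsd2a, and ensheathing cells take 43.6% of the Mfsd2a UMIs.

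In single EC1 cells a UMI of Cldn5 was found in 99.8% and of Ly6c1 in 98.2%, of Abcb1a in 76.8%, Slc2a1 in 75.5%, Slco1c1 in 74.2%, Slc7a5 in 55.5%, Pecam1 in 50.9%, Tfrc in 41.9% and Mfsd2a in 32.1%. The Wilson 95% interval for Slc2a1 ran from 73.8% to 77.2%, and such intervals cover counting error only. After each cell was thinned to 500 UMIs, the shares were 95.01% for Cldn5, 86.9% for Ly6c1, 40.2% for Slc2a1 and 11.9% for Mfsd2a. In the neuron cluster N1, whose median of 1734 UMIs was like that of EC1, the unthinned share was 6.67% for Cldn5, 3.9% for Ly6c1, 1.42% for Slc2a1 and 6.5% for Pecam1. The parts of free RNA and of sparse expression in these shares were not tested. OEC1 cells, with a median of 2108 UMIs, had a Cldn5 UMI in 95.9%. A cell of EC1 showed a median of 6 of the 9 genes, 99.3% showed 3 or more, and 105 cells (4.16%) showed all 9. The median was 3 in EC2 and in N11, 1 in OEC1 and 0 in N1.

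Brain endothelium is zoned along the vessel, and EC1 cells could be set apart by markers outside the 9 genes. Cells with at least 2 UMIs of arterial markers (Bmx, Sema3g, Gkn3, Hey1, Efnb2) and none of venous ones (Slc38a5, Nr2f2, Il1r1, Lcn2) were compared with cells of the opposite kind, a split chosen after the data had been seen. There were 205 arterial-marker cells (median 2018 UMIs) and 328 venous-marker cells (2170), with 24 to 41 and 35 to 81 per library, and 89 and 180 of them had exactly 2 UMIs. The split was taken from the same cells as the readout, so the p-values below, from edgeR's quasi-likelihood test paired by library with the marker genes left out, show differences between these marker classes. In this comparison 19.9% of 1571 genes tested passed at a Benjamini-Hochberg adjusted p of 0.05, and 5 of the 9 genes did.

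Tfrc in arterial-marker cells was at 146 and 135 CPM in control, 211 and 52.9 in occluded and 128 and 128 in trained libraries. In venous-marker cells it was at 360 and 491, 620 and 571, and 785 and 517 CPM. The venous-marker value was higher in all 6 libraries without overlap, and the arterial level was lower by 2.01 on the log2 scale (log2 fold change -2.01, SE 0.19, edgeR adjusted p = 4.5e-13). Slc7a5 showed the same order, with 212 and 260, 181 and 141, and 414 and 278 CPM in arterial-marker cells and 409 and 522, 714 and 684, and 735 and 686 in venous-marker cells. The order held within every library, although the arterial value of trained 1 was above the venous value of control 1 (log2 fold change -1.28, SE 0.16, edgeR adjusted p = 3.09e-09). Ly6c1 went the other way, at 7537 CPM in arterial-marker and 3377 in venous-marker cells on average, higher in 6 of 6 libraries (log2 fold change 1.16, SE 0.08, edgeR adjusted p = 3.01e-18).

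Smaller differences passed for Abcb1a, at 825 CPM in arterial-marker and 1104 in venous-marker cells (log2 fold change -0.41, edgeR adjusted p = 0.00192, 5 of 6 libraries), and for Slc2a1, at 1349 and 1084 CPM (0.34, edgeR adjusted p = 0.00807, 5 of 6). DESeq2 called only Tfrc, Slc7a5 and Ly6c1. Slco1c1 (0.28, edgeR adjusted p = 0.0729), Pecam1 (0.27, 0.172), Cldn5 (-0.09, 0.531) and Mfsd2a (0.02, 0.956) did not pass. The capillary gene Car4, not a member, was at 149 CPM in arterial-marker cells, 2396 in venous-marker cells and 2041 in cells with no UMI of either list, and Slc38a5 gave 641 of the 1096 venous-marker UMIs. Vwf, a marker of fenestrated or venous endothelium, was at 177 ± 78.2, 280 ± 104 and 44.3 ± 24.6 CPM in the same order of classes. The venous-marker class thus held counts of both Car4 and Vwf, and venous and capillary cells cannot be told apart within it. The 1242 cells with no UMI of either list lay between the marker classes for Ly6c1 (5058 CPM) and Tfrc (426 CPM) and above both for Slc7a5 (722 CPM). EC2 held 15 arterial-marker and 61 venous-marker cells, too few for the comparison.

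**Figure D3:**
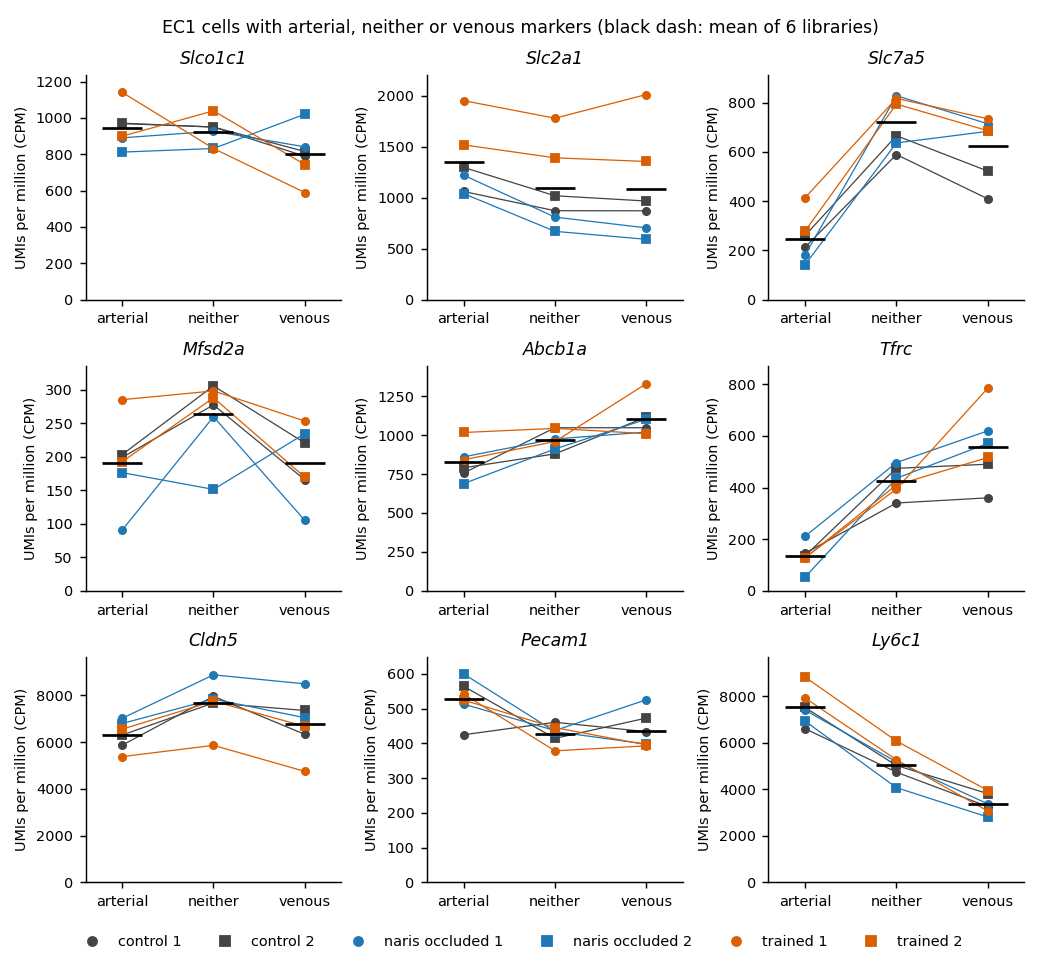
Level of the 9 genes in EC1 cells with arterial markers, neither or venous markers, in CPM, 1 point per library (lines join a library, black dashes are means). Tfrc lies lower and Ly6c1 higher in arterial-marker cells, with no overlap with venous-marker cells, and Slc7a5 lies lower within each of the 6 libraries.

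The question of the conditions was whether closing a nostril or training changed the levels of these genes within a cluster. Sums of counts per library were compared by edgeR's quasi-likelihood test over all genes that passed a filter on low counts. In EC1, 8665 genes were tested, among them all 9 members, and Slc2a1 was the only member that passed at an adjusted p of 0.05. It was at 861 and 996 CPM in control, 850 and 703 in occluded and 1783 and 1346 in trained libraries. Both trained libraries lay above all 4 others, and the occluded libraries below both controls. Slc2a1 was 1.71-fold higher in trained than in control (log2 fold change 0.78, SE 0.14, edgeR adjusted p = 0.0193), in a comparison in which 1 of 9 members and 0.335% of all genes passed. It was 2.06-fold higher in trained than in occluded (log2 fold change 1.04, SE 0.15, edgeR adjusted p = 0.00072), again 1 of 9 members beside 0.404% of genes. Between occluded and control the log2 fold change of Slc2a1 was -0.26 (SE 0.14, edgeR adjusted p = 0.997), no member passed by edgeR, 1 (Slc7a5) had an unadjusted p under 0.05, and 0.0231% of genes passed.

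The Slc2a1 values rested on few pools. Without trained library 1, which had the highest value, the log2 fold change of trained over control was 0.54 (edgeR adjusted p = 0.0746), without control 1 it was 0.68 (0.413) and without control 2 it was 0.89 (0.0586). Without occluded 2 the value of trained over occluded was 0.92 (edgeR adjusted p = 0.0639). The call against control was also lost when only the control and trained libraries were fitted (edgeR adjusted p = 0.064) and in cells with 1000 or more UMIs (0.0614). With DESeq2 the adjusted p-values were 0.00958 and 9.4e-07. The share of EC1 cells with a Slc2a1 UMI, thinned to 500 UMIs, was 36.1% and 38.7% in control, 32.4% and 28.9% in occluded and 56.5% and 48.0% in trained libraries, so both trained shares lay above the others. The same order was seen in venous-marker EC1 cells, with 872 and 968, 704 and 592, and 2014 and 1356 CPM, and in EC1 cells of neither marker class. In arterial-marker cells, with 1061 and 1298, 1222 and 1041, and 1954 and 1520 CPM, trained libraries were again above all others, while occluded and control libraries overlapped. The shares and the marker classes come from the same EC1 cells and libraries as the tested sums, so they are not independent of them. The median mitochondrial share of EC1 cells in these libraries lay between 7.44% and 9.47%, with trained 1 highest and trained 2 at 7.59%, and haemoglobin counts, a sign of blood, between 845 and 10880 CPM. Their part in the result was not tested.

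No other member passed in EC1, and Slc7a5, Mfsd2a, Cldn5 and Ly6c1 had an unadjusted p under 0.05 in a contrast with trained libraries. Members at that p, Slc2a1 included, were 2 of 9 for trained over control and 4 of 9 for trained over occluded, beside 8.96% and 10.2% of all genes. Slc7a5 was at 508 and 541 CPM in control, 727 and 575 in occluded and 721 and 635 in trained libraries (trained over control: log2 fold change 0.39, SE 0.14, edgeR adjusted p = 0.402). Mfsd2a was at 240 and 255, 221 and 182, and 306 and 244 CPM (trained over occluded: 0.49, SE 0.16, edgeR adjusted p = 0.266). Cldn5 was at 7060 and 7475, 8211 and 7257, and 5485 and 7446 CPM (trained over occluded: -0.24, SE 0.10, edgeR adjusted p = 0.396). Ly6c1 was at 4342 and 5130, 5048 and 4168, and 4851 and 5795 CPM (trained over occluded: 0.23, SE 0.10, edgeR adjusted p = 0.434). Without trained library 2 the Cldn5 value became -0.45 (edgeR adjusted p = 9.88e-06) and that of Mfsd2a 0.66 (0.0201), where the lone trained library is assumed to vary like the other groups. The occluded and trained values overlapped for Cldn5 and Ly6c1 and did not for Mfsd2a. The control and trained values overlapped for Mfsd2a and Cldn5 and did not for Slc7a5. The median log2 fold change of the 9 genes was 0.11 for trained over control and 0.06 for trained over occluded, and that of all genes was 0.00 in both.

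In EC2, with 4085 genes and all 9 members tested, Cldn5 was the only member that passed, and it was lower in trained than in occluded libraries. Cldn5 was at 3176 and 3258 CPM in control, 3549 and 4474 in occluded and 2123 and 3006 in trained libraries. Both trained values lay below both occluded and both control values (trained over occluded: log2 fold change -0.63, SE 0.16, edgeR adjusted p = 0.0385, 1 of 9 members beside 0.685% of genes). The call was lost with DESeq2 (adjusted p = 0.992), with the replicate number as a block (edgeR adjusted p = 0.0812), with no filter on low counts (0.054), with only the libraries compared (0.0786), in cells with 1000 or more UMIs (0.411) and without any 1 of control 1 (edgeR adjusted p = 0.108), control 2 (0.0768), occluded 2 (0.379) or trained 1 (0.516). The median mitochondrial share of EC2 cells was lowest in occluded 2 (14.0%) and highest in trained 1 (19.1%). Haemoglobin counts were at 2942 CPM in occluded 2 and at most 280 in the other libraries. Their part in the Cldn5 result was not tested. For trained over control and occluded over control no member passed by edgeR or by DESeq2, and 0.049% and 0.245% of genes passed. At an unadjusted p under 0.05 there were 4 and 0 of 9 members, beside 5.75% and 6.39% of all genes, and for trained over occluded 3 of 9, beside 11.2%. Slc2a1 in EC2 was at 470 and 474 CPM in control, 390 and 577 in occluded and 841 and 678 in trained libraries (trained over control: 0.73, SE 0.21, edgeR adjusted p = 0.283). Mfsd2a was at 123 and 138, 169 and 126, and 253 and 240 CPM (0.96, SE 0.28, edgeR adjusted p = 0.283). Both trained values lay above all others for each of these genes, and Slc2a1 passed without trained library 2 (0.87, edgeR adjusted p = 0.0466), under the same assumption for the lone trained library.

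**Figure D4:**
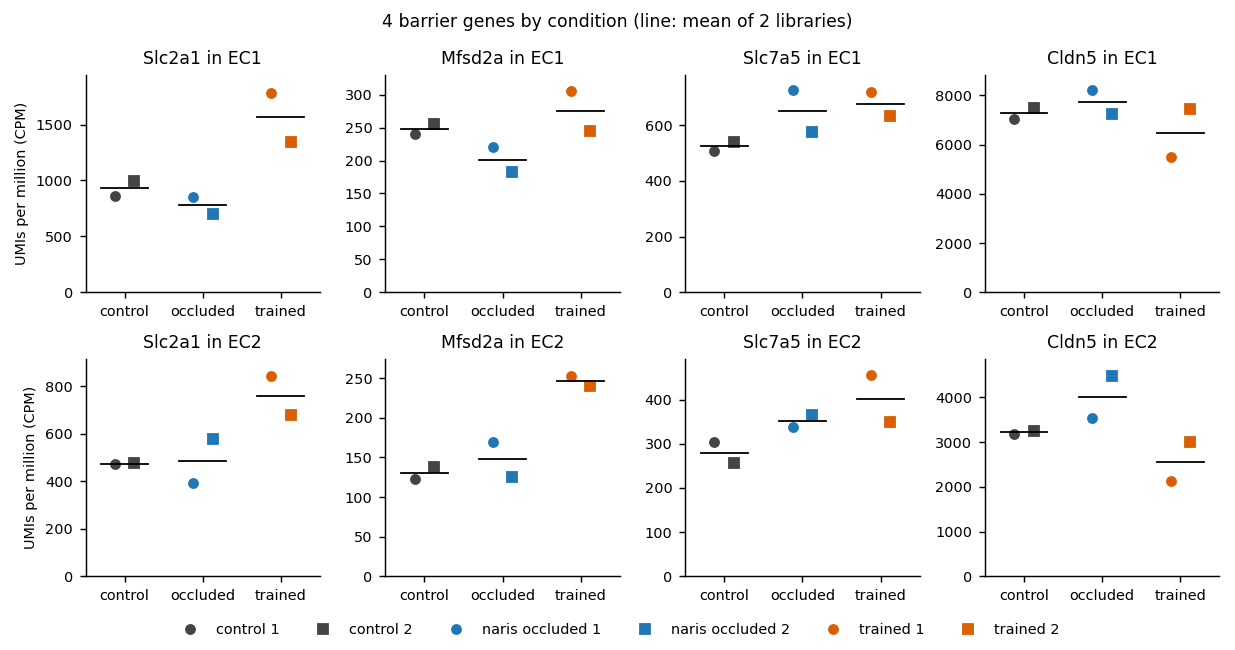
Level of Slc2a1, Mfsd2a, Slc7a5 and Cldn5 in EC1 (top) and EC2 (bottom) in CPM by condition, 1 point per library with the mean as a line. Trained libraries are above all others for Slc2a1 in both clusters (EC1: 1346 and 1783 against at most 996).

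Whether the condition acted differently on EC2 than on EC1 was tested as an interaction with library as a block. No member passed for any contrast by edgeR, while 0, 0 and 4 of 8007 genes passed (0%, 0% and 0.05%). For Slc2a1 the difference of the log2 fold changes, EC2 minus EC1, was -0.11 (SE 0.21) for trained over control. For Cldn5 it was -0.39 (SE 0.14, edgeR adjusted p = 0.65) for trained over occluded, with an unadjusted p of 0.0046, and 0, 1 and 1 members had an unadjusted p under 0.05. Without occluded 1 a single member passed for trained over occluded. In Mural2 only Cldn5, Pecam1 and Ly6c1 passed the filter on low counts and none was called by edgeR, where 0.0253%, 0% and 0% of genes passed. Cldn5 there was at 202 and 255 CPM in control, 127 and 159 in occluded and 124 and 46.1 in trained libraries (trained over control: -1.45, SE 0.33, edgeR adjusted p = 0.28), and it was the member with an unadjusted p under 0.05 in each of the 3 contrasts. It passed without occluded 1 (edgeR adjusted p = 0.00265), occluded 2 (0.00186) or trained 1 (0.000449), the last leaving 1 trained library.

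In the 30 other clusters with at least 20 cells in every library, 121 pairs of member and cluster passed the filter. Of these 2 passed for occluded over control, 2 for trained over control and 9 for trained over occluded, beside 0.0809%, 0.12% and 0.573% of all gene and cluster pairs. The neuron cluster N11 held 1, 2 and 7 of them. N11 (951 cells, median 1679 UMIs) carried the 9 genes at a median of 34.7% of EC1, its neuron markers summed to 2486 CPM and its endothelial markers to 1509, and 56.8% of its cells had at least 2 UMIs of the 9 genes and at least 2 of neuron markers, against 11.4% in EC1. The deposited annotation of neurons kept 291 cells of N11 and left out 660. Slco1c1 was at 62.2 CPM in the kept cells (median 1158 UMIs) and 356 in the others (2169.5 UMIs), and Cldn5 at 567 and 2037, while the synaptic gene Syt1 was at 1266 and 960. The labels call N11 a neuron cluster, and its cells carried markers of both kinds.

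In N11, Slco1c1 was at 281 and 255 CPM in control, 589 and 408 in occluded and 183 and 180 in trained libraries. The conditions did not overlap, with a rise from control to occluded (log2 fold change 0.89, SE 0.21, edgeR adjusted p = 0.0272, 1 of 9 members beside 0.512% of genes) and a fall from occluded to trained (-1.51, SE 0.21, edgeR adjusted p = 8.27e-06). Cldn5 was at 1909 and 1944, 3016 and 2082, and 1015 and 1028 CPM, lower in trained than in control (-0.97, SE 0.18, edgeR adjusted p = 0.00218) and than in occluded libraries (-1.37, SE 0.18, edgeR adjusted p = 3.25e-06). Pecam1 was the other member lower in trained than in control (-0.84, SE 0.21, edgeR adjusted p = 0.0451), so that 2 of 9 passed there beside 0.617% of genes. Against occluded libraries 7 of 9 members were lower in trained ones, in a comparison in which 7.14% of genes passed and 4.04% were lower. Abcb1a, Slc7a5, Ly6c1, Pecam1 and Mfsd2a were the others of the 7, with log2 fold changes of -1.39, -1.12, -1.08, -1.03 and -0.87. Without occluded 1, Ly6c1 (-0.63, edgeR adjusted p = 0.211), Pecam1 (-0.83, 0.115), Slc7a5 (-0.92, 0.0745) and Mfsd2a (-0.65, 0.335) did not pass, and without trained 2 Slc7a5 (0.0532) and Mfsd2a (0.161) did not. The Slco1c1 value of occluded over control was lost without occluded 1 (0.59, edgeR adjusted p = 0.571), control 1 (0.101) or control 2 (0.311), and the Pecam1 value of trained over control without any 1 of the 6 libraries (0.0535 to 0.33). Tfrc (-0.49, edgeR adjusted p = 0.145) and Slc2a1 (-0.18, edgeR adjusted p = 0.722) did not pass. The median over the 9 genes was -1.08, and that over all genes 0.00.

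The markers of vessels and neurons moved with these values. In N11 the 8 endothelial markers summed to 1555 and 1409 CPM in control, 2425 and 1802 in occluded and 946 and 915 in trained libraries, and the 4 neuron markers to 2546 and 2633, 1794 and 1859, and 2826 and 3257. Pericyte markers summed to 439 and 297, 755 and 727, and 261 and 401 CPM. The endothelial and neuron sums each separated the 3 conditions without overlap, in opposite orders. The part of vessel RNA in the N11 cells of each library was not tested.

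**Figure D5:**
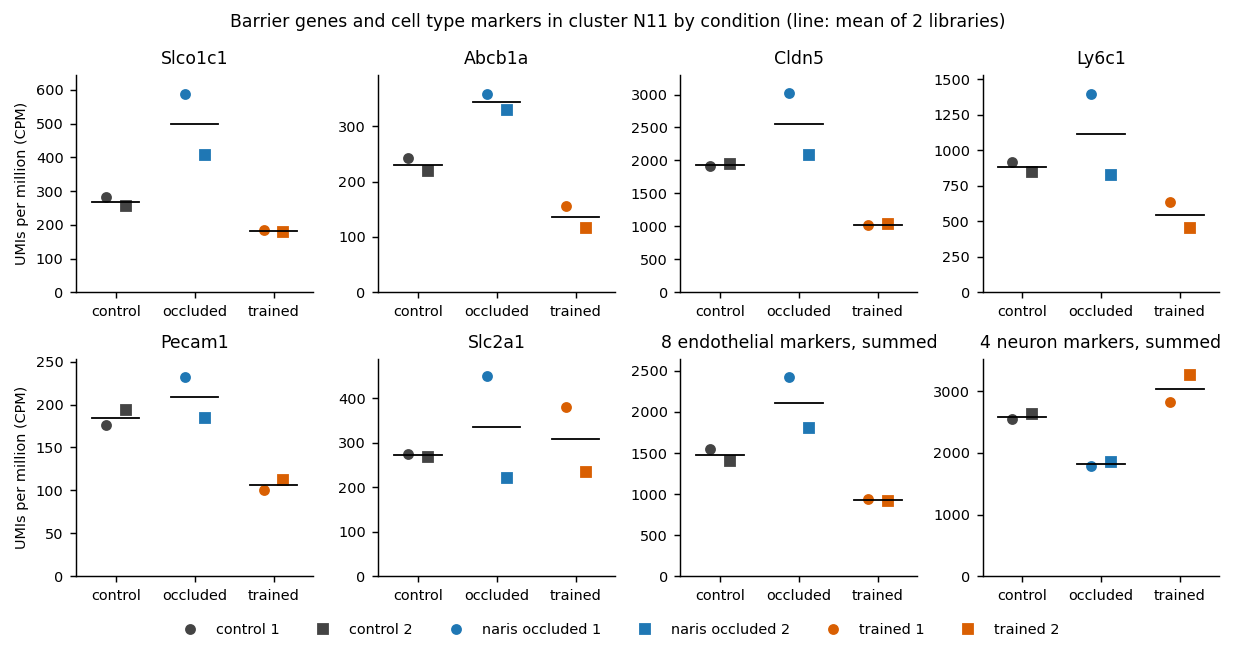
Level of 6 of the genes, and summed endothelial and neuron markers, in cluster N11 in CPM by condition, 1 point per library with the mean as a line. Slco1c1, Abcb1a, Cldn5 and the endothelial markers are lowest in trained libraries and neuron markers highest there.

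Apart from N11, Cldn5 was the only member that passed in other clusters, where 0.0563%, 0.0914% and 0.2% of gene and cluster pairs passed for the 3 contrasts. Its log2 fold change of trained over occluded was below 0 in 22 of the 27 clusters in which it was tested (median -0.48), and 10 of these values, N11, OEC4 and N15 included, had an unadjusted p under 0.05, as did 1 above 0 (OEC5), beside 7.91% of all gene and cluster pairs in either direction. The 10 also included the neurons N1 (-0.83) and N10 (-0.78) and myelinating oligodendrocytes (-1.14), where the mean level was 41.9, 51.8 and 55.5 CPM. Pecam1 was as one-sided, below 0 in 23 of 24 clusters (median -0.43), 7 of them at an unadjusted p under 0.05. For occluded over control, Cldn5 was above 0 in 16 of 27 clusters and Pecam1 in 20 of 24. Of these 6 and 4 were at that p, as was 1 Cldn5 value below 0. For trained over control, Cldn5 was below 0 in 21 and Pecam1 in 19. Of these 7 and 2 were at that p, as were 3 Cldn5 values above 0. All pairs at that p made up 4.85% and 5.92%. For trained over occluded, Slc2a1 lay above 0 in 12 of 14 clusters (median 0.26), none at that p. For trained over control it did so in 12 (median 0.45) and for occluded over control in 11, 1 of them at that p in each. The other 6 members were tested in 2 to 19 clusters, with medians for trained over occluded from -0.55 (Slc7a5) to 0.01 (Ly6c1). These counts include N11. All clusters come from the same 6 libraries, so the clusters in these counts are not independent of each other. In OEC4 Cldn5 was at 120.5 and 97.2 CPM in control, 201 and 180.1 in occluded and 111 and 135 in trained libraries. The occluded values lay above all others, higher than control by 0.78 (SE 0.14, edgeR adjusted p = 0.0115, beside 0.0206% of genes in OEC4), and trained were lower than occluded (-0.64, SE 0.14, edgeR adjusted p = 0.0211, beside 0.309%). In N15 it was at 192 and 192, 152 and 384, and 38.5 and 77.1 CPM from 150 UMIs in all, lower in trained than in occluded libraries (-2.21, SE 0.46, edgeR adjusted p = 0.031, beside 0.164%). Both trained values of N15 lay below all others. DESeq2 called none of these 3 differences. In OEC4 the first was lost without control 2 (edgeR adjusted p = 0.981) or occluded 1 (0.0828) and the second without control 2 (0.0562), occluded 1 (0.153) or trained 1 (0.543). In N15 the call was lost without occluded 2 (log2 fold change -1.49, edgeR adjusted p = 0.416) or trained 1 (-1.76, 0.553).

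A wider list of 79 barrier genes, 78 of them measured, set the members beside other parts of the pathway. Of these 46 had their highest level in EC1, and 51 were higher in EC1 than in EC2 in all 6 libraries. By group the first count was 10 of 14 nutrient, hormone and ion carriers, 4 of 9 efflux pumps and organic anion carriers, 5 of 13 junction genes, 5 of 11 genes of transcytosis and receptors, 10 of 19 Wnt and transcription factor genes and 12 of 12 endothelial surface genes. In EC1 the organic anion carrier Slco1a4 was at 3386 ± 107 CPM, the efflux pump Abcg2 at 722 ± 80.7 and the taurine carrier Slc6a6 at 1199 ± 136. The immunoglobulin-family protein basigin (Bsg) was at 16548 ± 2126 CPM and the barrier transcription factor Foxq1 at 453. Plvap, a marker of fenestrated vessels, was at 3 CPM. Of 67 list genes tested in EC1 none passed in any contrast by edgeR, with 5, 13 and 11 at an unadjusted p under 0.05 for occluded over control, trained over control and trained over occluded, beside 4.66%, 8.96% and 10.2% of all genes. In EC2 none of 58 passed, with 6, 5 and 4 at that p, beside 6.39%, 5.75% and 11.2% of all genes.

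Over the 38 clusters, the genes outside the list of members whose levels ran most like theirs were ranked by Pearson's r of log2(CPM + 1) among 8795 genes, given as a description since clusters share libraries and depth. Slco1c1 ran closest to its family member Slco1a4 (r = 0.925), Ly6c1 to the VEGF receptor gene Flt1 (0.966), and Slc2a1 to Tmem252 (0.891). For Slc2a1, Polk (0.888) and Bsg (0.887) came next. Abcb1a ran closest to Paqr5 (0.915), Cldn5 to Sema3g (0.937), Pecam1 to Sgms1 (0.903), Tfrc to Sema3c (0.886), Slc7a5 to Rasip1 (0.876) and Mfsd2a to Caskin2 (0.858). Between members r ran from 0.285 for Mfsd2a and Tfrc to 0.928 for Slco1c1 and Ly6c1. The near copies of 2 members were counted apart: Abcb1b was at 2.30 CPM in EC1, and Ly6c2 at 39.1 ± 10.5 there and at 363 ± 139 in monocytes. Of 351 stretches of 50 bases in the last 400 bases of Ly6c1, 85 (24.2%) were also in Ly6c2, so a part of their reads is uncertain, and none was shared by Abcb1a and Abcb1b.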

How the data were processed

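RNA of single cells was counted in 6 libraries. The authors made the raw counts (UMIs per gene and cell) with Cell Ranger 2.0.0 on the mm10 build and clustered them with Seurat 2.2.1, per the submitters' processing notes, keeping cells with 200 or more genes, regressing out depth and mitochondrial share and removing doublets, per the study's methods, which do not say whether this preceded deposit. No further doublet calling was done. Cluster names and libraries were read from the deposited annotation, whose cluster numbers (N, OEC and Mes) are not those of the paper, and 1123 of 52549 barcodes had no cluster. Levels are CPM, UMIs of a gene per 1000000 UMIs summed over the cells of a cluster and library. Shares with a UMI were also taken after thinning each cell to 500 UMIs. Counts summed per library and cluster were tested with edgeR 4.0.16 (R 4.3.3; TMM factors, filterByExpr, quasi-likelihood F test, Benjamini-Hochberg over all genes tested, 0.05), all 6 libraries in 1 fit, without a replicate block. DESeq2 1.42.0 was the other tool. The edgeR scripts were tested on simulated data. Replicate numbers mark the sex of the pools. Deviations of replicate 1 from its condition's mean correlated between conditions at 0.0185 to 0.158 over the genes tested in EC1, EC2 or Mural2. SDs are over libraries, and Wilson intervals of shares are over cells. Genes named besides the 9 members were those of closest profile and the near copies of 2 members. Markers of cell types, vessel zones and sex and genes of the wider barrier list were also named. The members, gene lists and tests were chosen with earlier results of these data known. Coordinates and promoters are from RefSeq (GRCm38.p6), and the promoter table used here held 7 of the 9 genes (Slc7a5 and Pecam1 not used).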

Additional observations from a re-analysis of the deposited data

Results flagged for a closer look

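The 1123 barcodes to which the deposited annotation gave no cluster, with a median of 2327 UMIs, also held UMIs of all 9 genes. They held 1645 UMIs of Cldn5 (545 CPM), 357 of Ly6c1, 225 of Pecam1, 189 of Slc2a1, 174 of Tfrc, 163 of Mfsd2a, 160 of Slc7a5, 153 of Slco1c1 and 143 of Abcb1a. None of these UMIs entered a comparison.

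Pairs of clusters were searched only among EC1, EC2 and Mural2 and the clusters N11, N15 and OEC4, where a member had passed. A pair was kept only if either value passed edgeR's test. For 4 genes, the libraries of such a pair separated in opposite directions under the same contrast, and the difference between the clusters was not tested. How often the libraries of other genes separate in this way was not counted. For trained over occluded, the log2 fold change of Slco1c1 was 0.30 in EC2 and -1.51 in N11. That of Mfsd2a was 0.49 in EC1 and 0.81 in EC2, and -0.87 in N11. That of Pecam1 was 0.23 in EC2 and 0.30 in Mural2, and -1.03 in N11. For trained over control, that of Pecam1 was 0.30 in Mural2 and -0.84 in N11. For occluded over control, that of Cldn5 was 0.78 in OEC4 and -0.67 in Mural2. The values in EC1, EC2 and Mural2 did not pass edgeR's test at an adjusted p of 0.05, and those in N11 and OEC4 did.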

How the results depend on the processing

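The 2 counts of 9 (members highest in EC1, and members above EC2 in 6 libraries) held in every setting run for them. No value recomputed under an alternative changed direction. Among condition values, these were only those that passed, or that had an unadjusted p under 0.05 in EC1, EC2 or Mural2. Of the arterial and venous values, only those of the 5 members that passed were recomputed. The call of Slc2a1 in EC1 for trained over control (1 member) was lost with only the libraries compared (0) and in cells with 1000 or more UMIs (0). Leaving out 1 library gave 0 to 2 members there and 0 to 3 for trained over occluded. In EC2 the 1 member for trained over occluded became 0 with DESeq2, no filter, only the libraries compared and cells with 1000 or more UMIs (0 to 2 leaving out 1 library), and trained over control gave 0 to 1. In Mural2 trained over control gave 1 with no filter and 0 to 2 leaving out 1 library, and the EC2 minus EC1 difference for trained over occluded 0 to 1. In other clusters DESeq2 gave 1, 1 and 5 pairs for the 3 contrasts instead of 2, 2 and 9. Trained over control gave 1 without TMM factors and 4 with no filter, and leaving out 1 library gave 0 to 3, 1 to 3 and 7 to 10. Of EC1 cells split by arterial and venous markers, 3 members passed with DESeq2 instead of 5, with 5 to 6 leaving out 1 library. The cause of these changes was not tested.

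With a replicate block, the pairing by sex gave 0 members in EC2 for trained over occluded (Cldn5, edgeR adjusted p = 0.0812) and 5 instead of 2 pairs for trained over control in other clusters. It ended no other member call in EC1, EC2 or Mural2.

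Over all genes, occluded over control in EC1 gave 2 genes, against 0 with DESeq2 and 10 with no filter (0 to 19 leaving out 1 library). Trained over control gave 29, against 6 with DESeq2, 85 with no filter, 3 with only the libraries compared and 5 in cells with 1000 or more UMIs (1 to 224, the last without trained 2). Trained over occluded gave 35, against 17, 109, 13 and 16 (5 to 262). In EC2 the counts were 10, 2 and 28, against 0, 0 and 1 with DESeq2, 2, 0 and 7 in cells with 1000 or more UMIs, and 7 to 19, 0 to 17 and 8 to 79 leaving out 1 library. Mural2 gave 1, 0 and 0, against 4, 7 and 6 with no filter, and the EC2 minus EC1 difference 0, 0 and 4, against 6, 0 and 7.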
